A study of Mus musculus with 4 samples.

Results

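The elastic fibre genes of the fetal testis were followed over 4 days of development: elastin (Eln), its crosslinking enzyme lysyl oxidase (Lox), the fibrillins Fbn1 and Fbn2, the microfibril-associated genes Mfap4 and Mfap5, and the fibulins Fbln1, Fbln2 and Fbln5. These 9 genes were chosen by name, and every probe whose RefSeq accession belongs to one of them was taken, which gave 12 probes of the 41174 on the array and 9 of the 21986 genes tested. Whole gonads of wild-type male embryos of the mouse line that the labels call MCH were measured on embryonic day 12.5, 13.5, 14.5 or 15.5, called E12.5 to E15.5 here, and each stage had 2 one-colour Agilent arrays, 8 in all. By the labels the stages differ only in age, and no treatment or mutant allele is given for any of them. The series text describes the 2 arrays of a stage as biological duplicates. The labels do not say how many embryos went into an array, nor whether the mesonephros had been removed.

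Elastic fibres are built outside the cell. Fibrillins assemble into microfibrils, soluble elastin is brought to that scaffold with the help of fibulins, and lysyl oxidase oxidises lysines of elastin so that the molecules crosslink into an elastic core. Smooth muscle of vessel walls and fibroblasts are well known sources of elastin, and fibrillin-2 is known as the fibrillin of embryonic tissue, whereas fibrillin-1 prevails later in life.

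The array values are a level per gene, the log2 of the processed signal minus the 75th percentile of that array, so 0 is the 75th percentile and a step of 1 is a doubling. Differences between stages are on the same log2 scale, with limma's standard error after the ± sign, and a gene was called at a Benjamini-Hochberg adjusted p under 0.05 over all 21986 genes. Processed signals at the 75th percentile ran from 802 to 1784 over the 8 arrays, and 60.3% to 69.8% of probes were well above background. The scanner headers place array 1 of the 2 earlier stages on slide 1, array 2 of these stages on slide 2, and the other 4 arrays, from the later stages, on slide 3. Both stages of the first and of the last daily step were therefore on the same slides, although the main model held no slide term. Slide, scan session and software version cannot be told apart from stage in the middle step (E13.5 to E14.5) or over the whole period. In whole gonads, fewer cells of a type and less RNA per cell cannot be told apart either. The testis markers fit the label: all 6 of the Sertoli cell genes Sox9, Amh, Dhh, Cldn11, Ptgds and Sox8 were above background on both arrays of every stage.

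Promoters are shown because their genes, Fbn1, Fbln1 and Fbln5, were all called higher at E14.5 than at E13.5. Those calls held in 7, 11 and 10 of 18 alternative fits, respectively. The sequences are those of RefSeq on GRCm38.p6, from 250 bases before the first start listed for the gene, read 5′ to 3′ on the strand of the gene. The table of promoters used here holds 4 of the 9 genes. Capitals mark the GC box GGGCGG or the SMAD element CAGAC on either strand. The Fbn1 sequence lies at chr2:125506486-125506688 on the minus strand and leaves out the 47 bases that fall inside the annotated gene, the Fbln1 sequence at chr15:85205699-85205948 on the plus strand, and the Fbln5 sequence at chr12:101819120-101819369 on the minus strand.
Fbn1: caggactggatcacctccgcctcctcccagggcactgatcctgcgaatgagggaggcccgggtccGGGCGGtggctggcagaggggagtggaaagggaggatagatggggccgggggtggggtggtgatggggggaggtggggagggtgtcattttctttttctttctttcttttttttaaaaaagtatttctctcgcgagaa
Fbln1: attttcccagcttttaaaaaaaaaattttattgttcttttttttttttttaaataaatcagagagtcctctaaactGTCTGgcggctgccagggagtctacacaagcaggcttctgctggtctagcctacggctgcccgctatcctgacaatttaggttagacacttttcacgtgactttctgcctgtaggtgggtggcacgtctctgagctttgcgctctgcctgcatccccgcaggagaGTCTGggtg
Fbln5: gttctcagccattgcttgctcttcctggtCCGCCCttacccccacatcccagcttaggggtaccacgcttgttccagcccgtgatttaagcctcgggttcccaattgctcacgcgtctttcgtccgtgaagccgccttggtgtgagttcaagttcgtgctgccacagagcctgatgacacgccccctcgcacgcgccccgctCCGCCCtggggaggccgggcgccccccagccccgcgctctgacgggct
The 250 bases before the first listed start held 1 GC box in Fbn1, 2 GC boxes in Fbln5 and 2 SMAD elements in Fbln1. These counts depend on the start taken: before the second listed start, Fbln1 had 1 GC box and 2 SMAD elements, and Fbln5 had 0 and 2. Fbln2, which moved the other way, held 1 GC box in its window, which lies inside the annotated gene. A GC box was found in 33.0% and a SMAD element in 42.2% of 32536 promoter windows of that length. The letters TATAAA, the AP-1 element TGANTCA, the NR5A1 element AAGGTCA and a CArG box, searched on both strands, matched in none of the 4 windows before the first starts, against 12.3%, 6.73%, 4.09% and 1.48% of all windows. Matches of this kind are descriptions of the sequence, not binding sites.

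Elastin itself went up furthest among the 9 genes. Eln (gene ID 13717, chr5:134702595-134747368, GRCm38.p6) was at -1.80 and -2.28 on the arrays of E12.5, -0.87 and -1.09 at E13.5, 0.28 and 0.52 at E14.5, and 1.42 and 1.31 at E15.5. No array of a later stage lay below any array of an earlier one. In processed signal this ran from 301 and 165 at E12.5 to 4780 and 3679 at E15.5. Eln rose between E12.5 and E15.5 by 3.41 ± 0.23 on the log2 scale, a 10.6-fold difference with a 95% interval of 2.86 to 3.96 in log2 (limma, adjusted p = 0.000230). It was called in that comparison under all 18 alternatives that gave a test, which share arrays and are not separate checks. The difference was spread over the days: 1.07 ± 0.23 from E12.5 to E13.5 (limma, adjusted p = 0.0582), 1.37 from E13.5 to E14.5 (limma, adjusted p = 0.0183) and 0.97 from E14.5 to E15.5 (limma, adjusted p = 0.172). Only the step to E14.5 was called, and it was not called when either array of E13.5 or either array of E14.5 was left out (adjusted p of 0.0535 to 0.0983). Within slides the first step was 0.94 on slide 1 and 1.20 on slide 2, and with slide as a fixed block it was called (limma, adjusted p = 0.0380). That first step was called in only 4 of 19 alternatives with a test.

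Lox, whose product crosslinks elastin and collagen, followed the same order of stages with smaller steps. It lies on chromosome 18, and its levels were -1.90 and -2.19 at E12.5, -1.33 and -1.76 at E13.5, -0.93 and -1.13 at E14.5, and -0.83 and -0.68 at E15.5. The stages did not overlap. Lox was 2.44-fold higher at E15.5 than at E12.5, a difference of 1.29 ± 0.22 (limma, adjusted p = 0.00650), and no single day was called. Without E15.5 array 2 the difference was 1.21 and not called (limma, adjusted p = 0.0503). On the same array, where scaling cancels, Eln gained 2.12 in log2 on Lox between E12.5 and E15.5, which is 4.35-fold. This mean gain follows from the single-gene differences above and is no further test of them. All arrays of E15.5 lay above those of E12.5 in this measure. With 2 arrays against 2, an exact two-sided permutation test cannot go below p = 0.333, which is the value it gave.

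**Figure D1:**
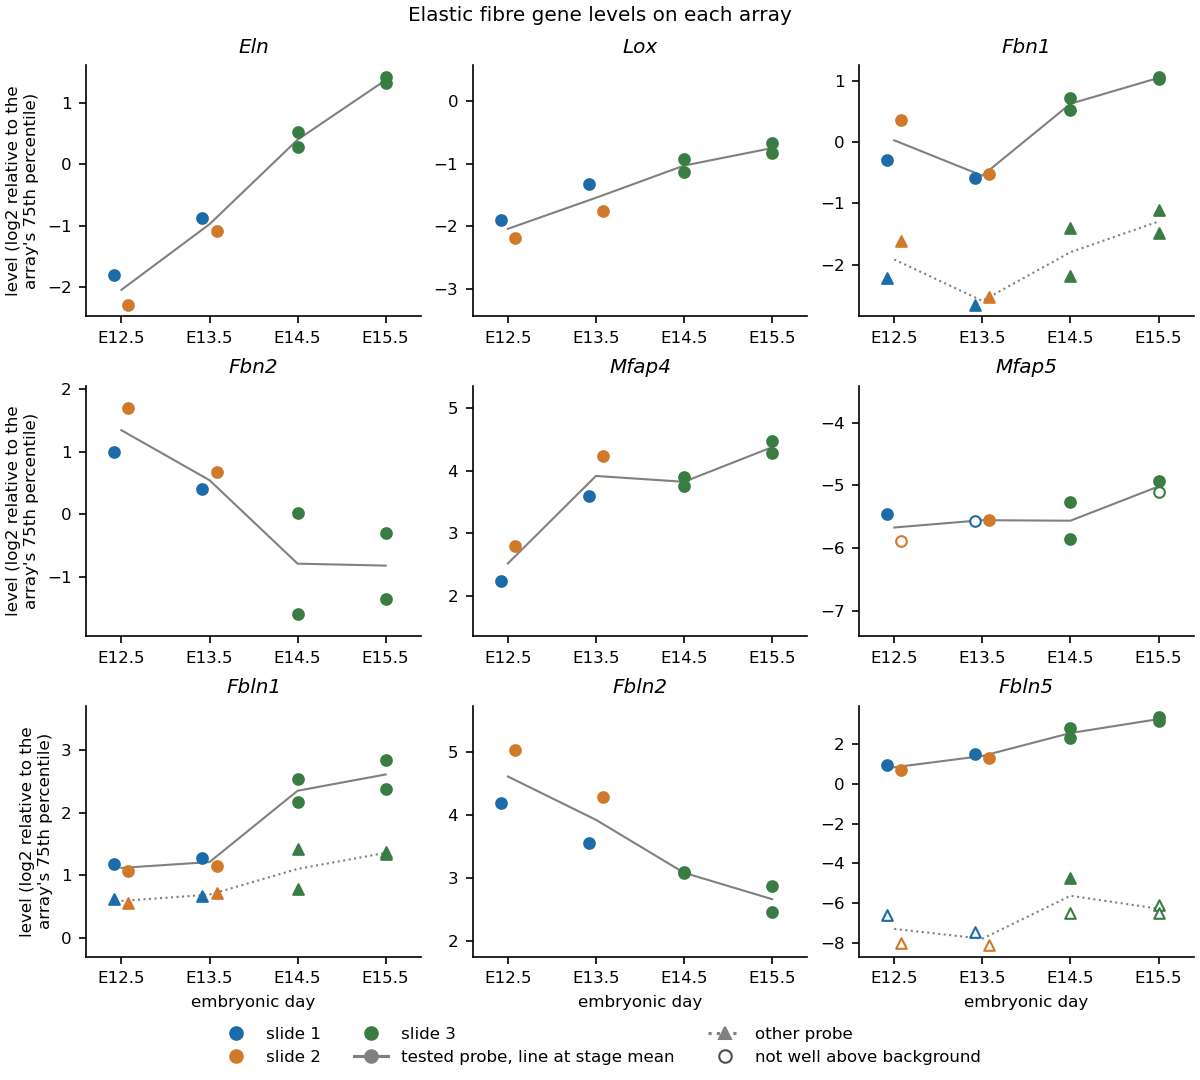
Level of each elastic fibre gene on each of the 8 arrays (log2 relative to the array's 75th percentile) against embryonic day. Circles are the tested probe with a line through stage means, triangles with a dotted line a further probe of the gene, colours the 3 slides, and open symbols values not well above background. Eln runs from -2.28 to 1.42, Fbn2 and Fbln2 run downwards, and Mfap5 lies near background on every array.

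The fibrillins, which form the microfibril scaffold, moved in opposite directions. Fbn1 (gene ID 14118, chr2:125300594-125506485) was at -0.30 and 0.36 at E12.5, -0.58 and -0.52 at E13.5, 0.53 and 0.73 at E14.5, and 1.07 and 1.03 at E15.5. Its order of stages was E13.5, E12.5, E14.5, E15.5 from low to high, with no overlap between neighbours. Fbn1 rose by 1.18 ± 0.25 from E13.5 to E14.5 (limma, adjusted p = 0.0322), a call that held in 7 of 18 alternatives with a test. It was 2.03-fold higher at E15.5 than at E12.5, a difference of 1.02 (limma, adjusted p = 0.0208). That call was less firm than that of Eln, since it held in 11 of 18 alternatives. It was lost without E12.5 array 1, where the difference was 0.69 (adjusted p = 0.0889), and without E15.5 array 1 or array 2, where the adjusted p was 0.0849 or 0.0942. A further Fbn1 probe had differences of the same sign in all 4 comparisons, with 0.80 ± 0.33 from E13.5 to E14.5 (limma, adjusted p = 0.158) and 0.62 from E12.5 to E15.5 (adjusted p = 0.191). It was not called in either.

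Fbn2, on chromosome 18, was at 0.99 and 1.69 at E12.5, 0.41 and 0.68 at E13.5, -1.59 and 0.01 at E14.5, and -0.29 and -1.35 at E15.5. The duplicates of E14.5 and of E15.5 lay far apart and overlapped each other, but all 4 of these arrays were below all 4 arrays of the earlier days. Fbn2 fell by 2.16 ± 0.59 on the log2 scale from E12.5 to E15.5, which is 4.47-fold lower (limma, adjusted p = 0.0311). That call held in 13 of 18 alternatives with a test. It was lost with another background correction and without a filter on dim probes. It was also lost when array 1 of E12.5 (-2.51), array 2 of E12.5 (-1.81) or array 2 of E15.5 (-1.63) was left out. The daily differences of Fbn2, -0.80, -1.33 and -0.03, were not called. Set against Fbn2 on the same array, Fbn1 gained 0.22 from E12.5 to E13.5, 2.51 from E13.5 to E14.5 and 0.45 from E14.5 to E15.5. Over the whole period the gain was 3.18, or 9.07-fold, which follows from the differences of Fbn1 and Fbn2 given above. The arrays of E15.5 lay at 2.67 and 3.69 above the E12.5 mean. The arrays of E12.5 differed by at most 0.03 from their mean in this measure, so the duplicates' spread in Fbn1 and Fbn2 at E12.5 ran in parallel.

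Of the microfibril-associated genes, Mfap4, whose product binds elastin and fibrillin, had its largest daily difference from E12.5 to E13.5. Mfap4 (gene ID 76293, chr11:61485431-61488708) was at 2.24 and 2.79 at E12.5, 3.59 and 4.23 at E13.5, 3.89 and 3.75 at E14.5, and 4.28 and 4.47 at E15.5. The E12.5 arrays were the lowest and those of E13.5 and E14.5 overlapped. The first step was 1.40 ± 0.29 (limma, adjusted p = 0.0544), with 1.35 on slide 1 and 1.44 on slide 2, and it was called with slide as a fixed block (limma, adjusted p = 0.0158). That step was called in only 5 of 19 alternatives with a test. From E13.5 to E14.5 the difference was -0.09. From E12.5 to E15.5 Mfap4 rose by 1.86 ± 0.29, or 3.62-fold (limma, adjusted p = 0.00439), and this call held in all 18 alternatives with a test.

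Mfap5, which encodes a small fibrillin-binding glycoprotein, was near the limit of detection. Mfap5 (gene ID 50530, chr6:122513584-122529290) had levels between -5.89 and -4.93, and processed signals between 13.5 and 58.5. It was well above background on both arrays of E14.5 but on 1 of 2 at each of the other stages, and it entered the test only through E14.5. Its difference from E12.5 to E15.5 was 0.65 ± 0.26 and was not called (limma, adjusted p = 0.0942), and its sign changed with another background correction.

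The fibulins split as the fibrillins did. Fbln5, which binds elastin and is needed for fibre assembly in mice, was at 0.99 and 0.71 at E12.5, 1.53 and 1.30 at E13.5, 2.82 and 2.33 at E14.5, and 3.19 and 3.37 at E15.5. Every stage lay above the one before with no overlap. Fbln5 (gene ID 23876, chr12:101746565-101819119) rose 5.38-fold from E12.5 to E15.5, a difference of 2.43 ± 0.24 (limma, adjusted p = 0.000783), and was called in all 18 alternatives with a test. Its step to E14.5 was 1.16 (limma, adjusted p = 0.0299), a call that held in 10 of 18 alternatives with a test. The further Fbln5 probe was well above background on only 1 array and was not tested.

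Fbln1, a fibulin of basement membranes and elastic fibres, was called in 1 daily comparison, from E13.5 to E14.5. Fbln1 (gene ID 14114, chr15:85205949-85286294) was at 1.18 and 1.07 at E12.5, 1.28 and 1.15 at E13.5, 2.53 and 2.17 at E14.5, and 2.38 and 2.85 at E15.5. The arrays of E12.5 and E13.5 overlapped, as did those of E14.5 and E15.5, and the later pair of stages lay above the earlier pair. The differences were 0.09 ± 0.23, 1.14 (limma, adjusted p = 0.0301) and 0.26 over the 3 days, and 1.49 (2.81-fold; limma, adjusted p = 0.00432) from E12.5 to E15.5. The call of the step to E14.5 held in 11 of 18 alternatives with a test. With array number as a replicate block that step was not called (limma, adjusted p = 0.0560). A further Fbln1 probe gave smaller values of the same sign, 0.41 ± 0.24 for the step to E14.5 (limma, adjusted p = 0.282) and 0.77 from E12.5 to E15.5 (limma, adjusted p = 0.0485).

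Fbln2, a fibulin of vessel walls and basement membranes, ran against Fbln1 and Fbln5. Fbln2 (gene ID 14115, chr6:91212460-91272540) was at 4.20 and 5.03 at E12.5, 3.56 and 4.30 at E13.5, 3.09 and 3.07 at E14.5, and 2.45 and 2.87 at E15.5. Each stage mean was below that of the day before, and the arrays of E12.5 and E13.5 overlapped. Within slides 1 and 2 the first step was -0.65 and -0.74. Fbln2 fell by 1.96 ± 0.36 on the log2 scale from E12.5 to E15.5, which is 3.88-fold lower (limma, adjusted p = 0.00833). That call held in all 18 alternatives with a test, and no single day was called. On the same array Fbln5 gained 4.39 in log2 on Fbln2 between E12.5 and E15.5, or 20.9-fold, and Fbln1 gained 3.45, or 10.9-fold. These mean gains follow from the single-gene differences and are no further test of them, since each pair sets a gene that rose against a gene that fell. The arrays of E15.5 did not overlap those of E12.5 in either measure, with the same permutation floor of p = 0.333. No share over other gene pairs is given for this.

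**Figure D2:**
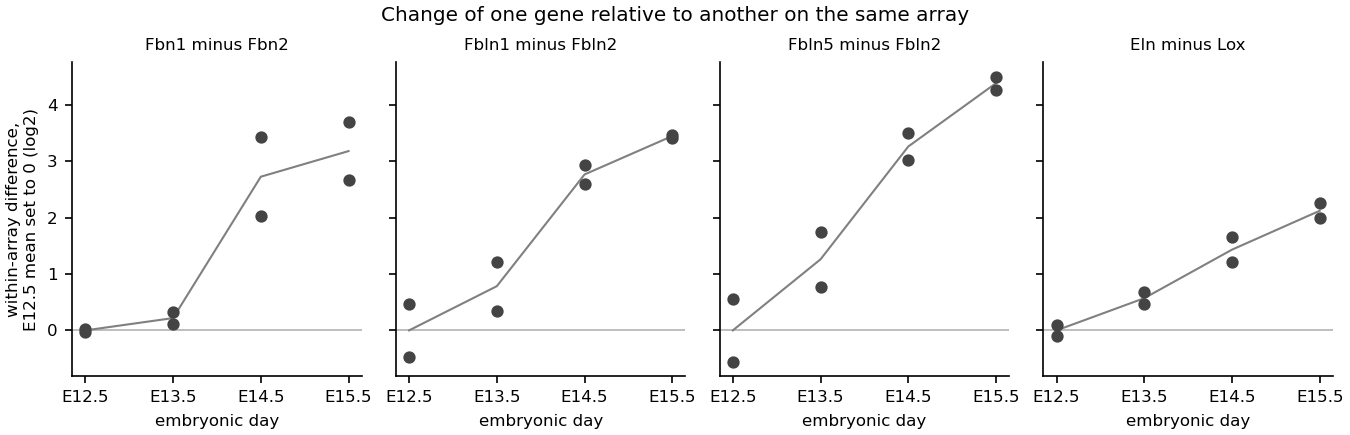
Difference in level between the genes of a pair on the same array (log2, with the E12.5 mean set to 0) against embryonic day, for Fbn1 minus Fbn2, Fbln1 minus Fbln2, Fbln5 minus Fbln2 and Eln minus Lox. Points are single arrays and lines join stage means. Scaling between arrays cancels in this measure, and at E15.5 the means are 3.18, 3.45, 4.39 and 2.12. These means follow from the single-gene differences and are no further test of them.

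From E12.5 to E15.5, 6 of the 9 genes rose (Eln, Lox, Fbn1, Mfap4, Fbln1 and Fbln5) and 2 fell (Fbn2 and Fbln2). Of all genes tested, 35.0% were called in this comparison, 17.6% higher and 17.4% lower. The median difference of the 9 genes was 1.29, against -0.07 over all genes tested. Leaving out E15.5 array 2 left 5 of the 8 calls (Eln, Fbln1, Fbln2, Fbln5 and Mfap4), while the count over all genes went from 7703 to 3492. The arrays of E15.5 and E12.5 did not overlap in any of the 9 genes, as in 74.0% of all genes tested.

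The single steps gave fewer calls. From E13.5 to E14.5, 4 genes rose (Eln, Fbn1, Fbln1 and Fbln5) and none was called lower, where 12.5% of all genes tested were called, 6.44% higher and 6.05% lower. That count was 0 when either array of E13.5 or array 1 of E14.5 was left out, and 2 when array 2 of E14.5 or either array of E15.5 was. Over all genes the count of 2746 went to 431, 219 and 395 in the first 3 cases, and to 1931, 1331 and 1331 in the others. From E12.5 to E13.5 none of the 9 genes was called by limma, with 3 at an unadjusted p under 0.05, against 3.98% and 17.1% of all genes. With slide as a fixed block, 2 were called (Eln and Mfap4), and 981 of all genes in place of 876. From E14.5 to E15.5 none was called by limma, with 2 at an unadjusted p under 0.05, against 0.655% and 9.52% of all genes. Over all 4 stages together, limma's F test called 7 of the 9, all but Fbn2 and Mfap5, against 31.1% of all genes. That number was 4 or 3 when array 1 or array 2 of E15.5, respectively, was left out, and over all genes it went from 6829 to 4333 or 3594. Stage means were higher at each day than the day before in 4 genes (Eln, Lox, Fbln1 and Fbln5) and lower at each day in Fbn2 and Fbln2, against 14.0% and 16.4% of all genes. The 4 comparisons share arrays and are not independent of each other.

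**Figure D3:**
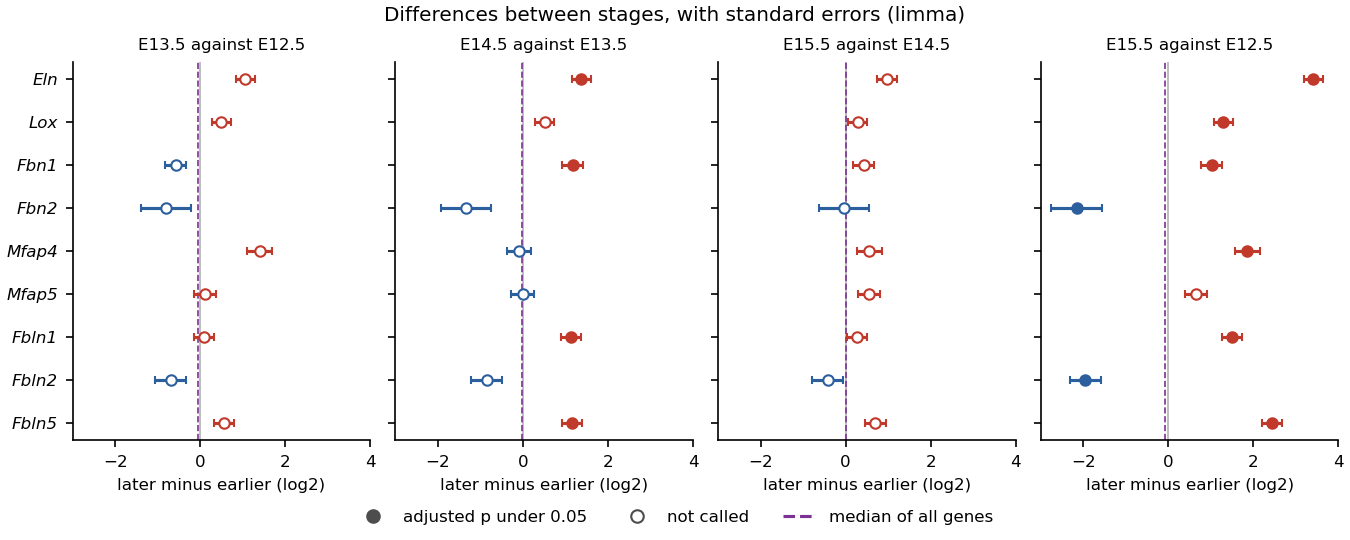
Difference of each gene in the 4 comparisons (later minus earlier stage, log2; bars are limma's standard errors from 8 arrays). Filled points have an adjusted p under 0.05 and the dashed line is the median of all genes tested. In E15.5 against E12.5, 8 of 9 points are filled, from -2.16 for Fbn2 to 3.41 for Eln.

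Other genes of the elastic fibre and its microfibrils were mostly on the higher side at E15.5. Of 29 listed, 21 were tested, and 9 rose and 2 fell from E12.5 to E15.5, with a median difference of 0.83 against -0.07 over all genes. Among all genes tested, 17.6% were called higher and 17.4% lower. Ltbp2, a fibrillin-binding relative of the latent TGF-beta binding proteins, rose by 2.87 ± 0.22 (limma, adjusted p = 0.000362). The small proteoglycan decorin (Dcn) rose by 1.52, Emilin2, an elastin microfibril interface protein, by 1.41, Efemp1, which encodes fibulin-3, by 1.37, and Ltbp4, which helps to place elastin on microfibrils, by 1.29. Thsd4, an ADAMTS-like microfibril protein, fell by 1.93 ± 0.60 (limma, adjusted p = 0.0469), a call lost in 11 of 17 alternatives with a test, and the endothelial multimerin Mmrn2 by 0.89, a call lost in 7 of 18. Efemp2, which encodes the elastin chaperone fibulin-4, differed by -0.06 ± 0.28 and Mfap1a, which despite its name encodes a splicing factor, by -0.17, and neither was called. From E12.5 to E13.5 this list had 1 gene called higher and 0 lower, against 3.98% of all genes called. From E13.5 to E14.5 it had 3 and 0, against 6.44% and 6.05%. From E14.5 to E15.5 limma called 0, with 3 at an unadjusted p under 0.05, against 0.655% and 9.52%.

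Few lysyl oxidase relatives, or genes that mature these enzymes and their substrates, were called. Of 12 listed, 10 were tested, and from E12.5 to E15.5 none was called higher and 1 lower, with a median difference of 0.03. The shares over all genes tested were 17.6% higher and 17.4% lower. Atp7a, the copper pump that loads lysyl oxidases with their metal, fell by 1.32 ± 0.18 (limma, adjusted p = 0.00255). Loxl1, the family member most tied to elastin, differed by 0.81 ± 0.33 (limma, adjusted p = 0.0999), and Pcolce, an enhancer of procollagen processing, by 0.04. Neither passed the test.

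Proteases able to cut elastin, together with their inhibitors, were called in both directions. Of 14 listed, 11 were tested, and 5 rose and 2 fell from E12.5 to E15.5, with a median of -0.40. The shares over all genes tested were 17.6% higher and 17.4% lower. The lysosomal cathepsins Ctss, Ctsl and Ctsk rose by 1.80, 1.62 and 1.53, and the gelatinase Mmp9 by 1.19 ± 0.29 (limma, adjusted p = 0.0203), although another Mmp9 probe had the opposite sign and the difference was 0.40 with normexp background correction. Its call was lost in 6 of 18 alternatives with a test. The metalloproteinase inhibitor Timp4 rose by 0.80, a call lost in 7 of 18 alternatives with a test (0.16 with normexp), while the inhibitor Timp2 fell by 1.79 ± 0.27 (limma, adjusted p = 0.00359) and Timp1 by 0.85. Mmp14, a membrane-bound protease, and Timp3, a matrix-bound inhibitor, differed by -0.79 and -0.40 and were not called. Macrophages are a known source of several of these proteases. Of 6 macrophage markers 4 had a probe, all above background on both arrays of E15.5, and their summed level, where 1 is the array's 75th percentile, went from 1.55 and 1.94 at E12.5 to 4.26 and 5.64 at E15.5. Lyz2, Adgre1 and Mrc1 rose by 1.67, 1.41 and 0.82, while Cx3cr1 fell by 1.32. The part of macrophages in the protease values was not tested.

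Microfibrils hold latent TGF-beta, and 17 of 20 listed genes of that pathway were tested. From E12.5 to E15.5, 2 rose and 2 fell, with a median of 0.19, where 17.6% of all genes tested were called higher and 17.4% lower. The signal transducer Smad2 rose by 0.69 ± 0.21 (limma, adjusted p = 0.0412), a call lost in 11 of 18 alternatives with a test. The matrix protein gene Tgfbi, named for its induction by TGF-beta, fell by 2.74 ± 0.22 (limma, adjusted p = 0.000382), and the integrin gene Itgb5 by 0.80, a call lost in 9 of 18. Smad4 differed by 0.23, with another probe of the opposite sign, and Ccn2 by 0.26, and neither was called.

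**Figure D4:**
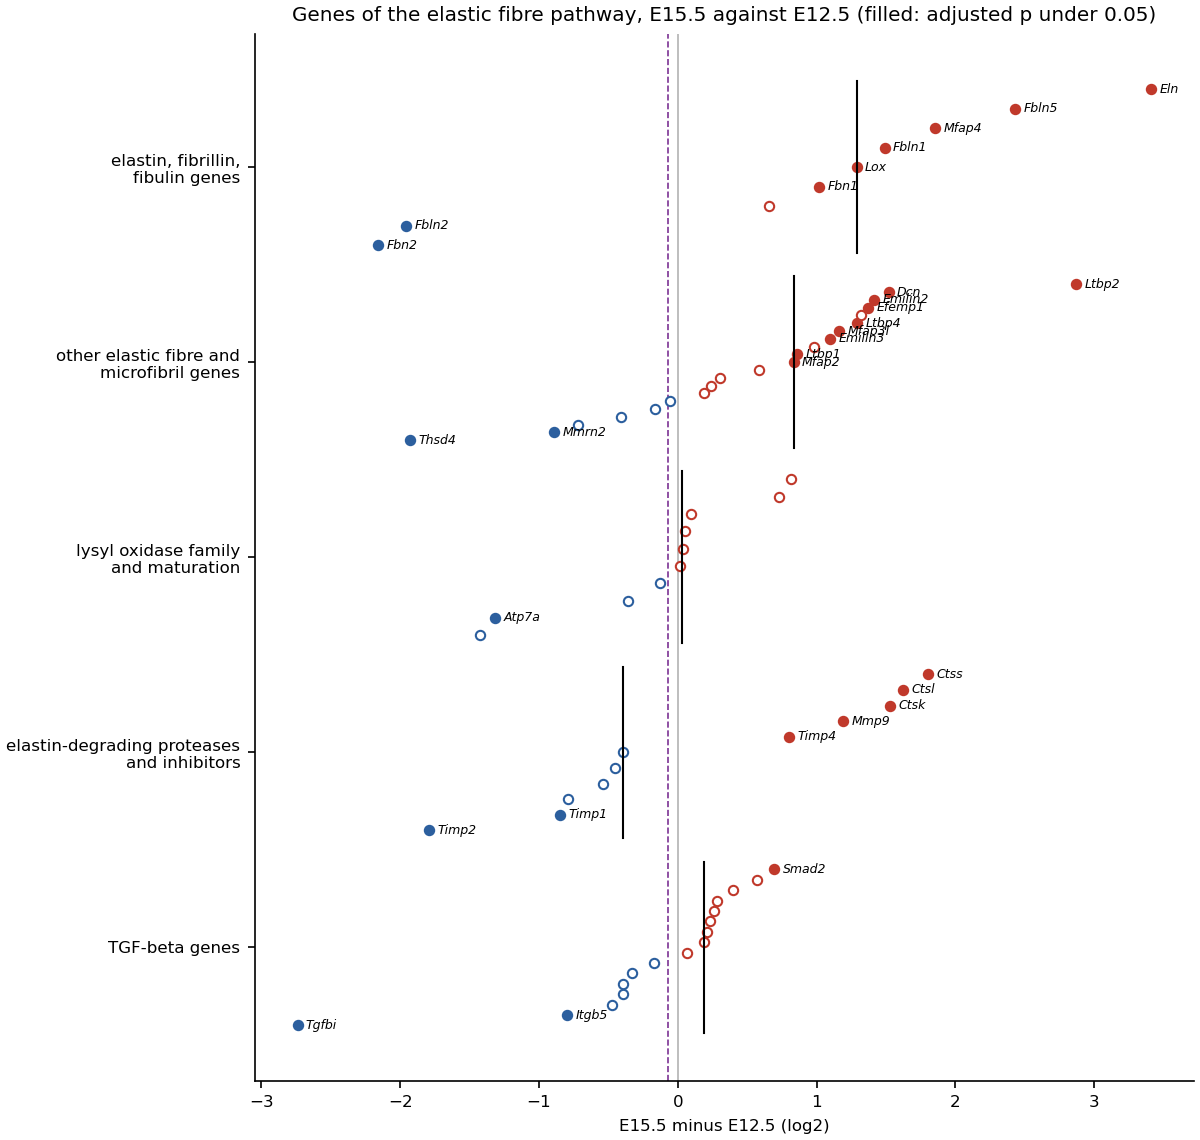
Difference between E12.5 and E15.5 of the tested genes of 5 lists that are reported here (E15.5 minus E12.5, log2). Each point is a gene, filled and named where limma's adjusted p is under 0.05, black bars are medians of the whole lists and the dashed line the median of all genes tested. The median is 1.29 for the 9 elastin, fibrillin and fibulin genes and 0.83, 0.03, -0.40 and 0.19 for the other lists from top to bottom.

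Markers of several cell types moved over the same days, where 17.6% of all genes tested were called higher and 17.4% lower from E12.5 to E15.5. Of 8 smooth muscle and peritubular markers 7 had a probe, all above background on both arrays of every stage, and 4 of the 7 rose from E12.5 to E15.5: Cnn1 by 3.54, Myh11 by 2.16, Acta2 by 2.04 and Lmod1 by 1.62. The other 3 were not called: Actg2 differed by 1.46 (limma, adjusted p = 0.0605), Tagln by -0.09 ± 1.01, with another probe of the opposite sign, and Des by -0.26. The summed level of these markers, where 1 is the array's 75th percentile, was 18.6 and 64.3 on the E12.5 arrays, 41.0 and 77.1 at E13.5, 58.8 and 48.3 at E14.5, and 64.7 and 66.8 at E15.5. The gap between the E12.5 arrays lies in 1 gene, Tagln, singled out after its values were seen, which was at 6.51 and 51.8 there. At E13.5, whose arrays share slides 1 and 2 with those of E12.5, Tagln was at 12.7 and 46.8. Without Tagln the sums were 12.1 and 12.5 at E12.5, 28.4 and 30.3 at E13.5, 42.0 and 37.3 at E14.5, and 48.9 and 47.9 at E15.5. The stages did not overlap in that sum. Most of it came from Acta2, which was at 9.01 and 10.5 at E12.5 and at 39.6 and 40.4 at E15.5. Without E12.5 array 1 the Eln difference from E12.5 to E15.5 was 3.65, and without E12.5 array 2 it was 3.17. The part of smooth muscle cells in the elastic fibre values was not tested.

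Fetal Leydig cell markers summed to 30.8 and 23.7 at E12.5 and to 159 and 134 at E15.5. Of them 6 of 6 were called higher, with a median difference of 2.62, against 17.6% of all genes called higher and 17.4% lower. Interstitial mesenchyme markers summed to 34.0 and 33.2 at E12.5 and to 47.2 and 54.9 at E15.5, with 1 of 6 called higher and 1 lower. Endothelial markers went from 18.0 and 18.3 to 8.57 and 8.29, with 2 of 6 called lower. Kdr fell by 2.59, while Pecam1 (-0.21) and Cdh5 (-0.30, with another probe of the opposite sign) were not called. Nephric duct and mesonephros markers went from 4.42 and 4.04 to 1.17 and 1.26, with 1 of 6 called higher (Pax8, not above background at E12.5) and 2 lower (Lhx1 and Pax2, the latter not above background at E14.5 and E15.5). Markers of the coelomic epithelium summed to between 9.01 and 12.8 on all 8 arrays, but 1 of 5 was called higher (Msln, 4.22) and 1 lower (Lrrn4, -1.91). Striated muscle markers, of tissue outside the gonad, went from 0.79 and 0.50 to 5.11 and 7.01, with 4 of 5 called higher, and cartilage markers from 4.43 and 4.81 to 7.07 and 8.18. Of the 3 cartilage genes tested, Col2a1 rose by 0.95 (with another probe of the opposite sign), Col9a1 fell by 3.43 and Acan was not called, and Matn1 was not above background at any stage. Erythroid markers went from 134 and 151 to 3.24 and 2.22. The part of each of these cell types, Leydig cells included, in the elastic fibre values was not tested.

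**Figure D5:**
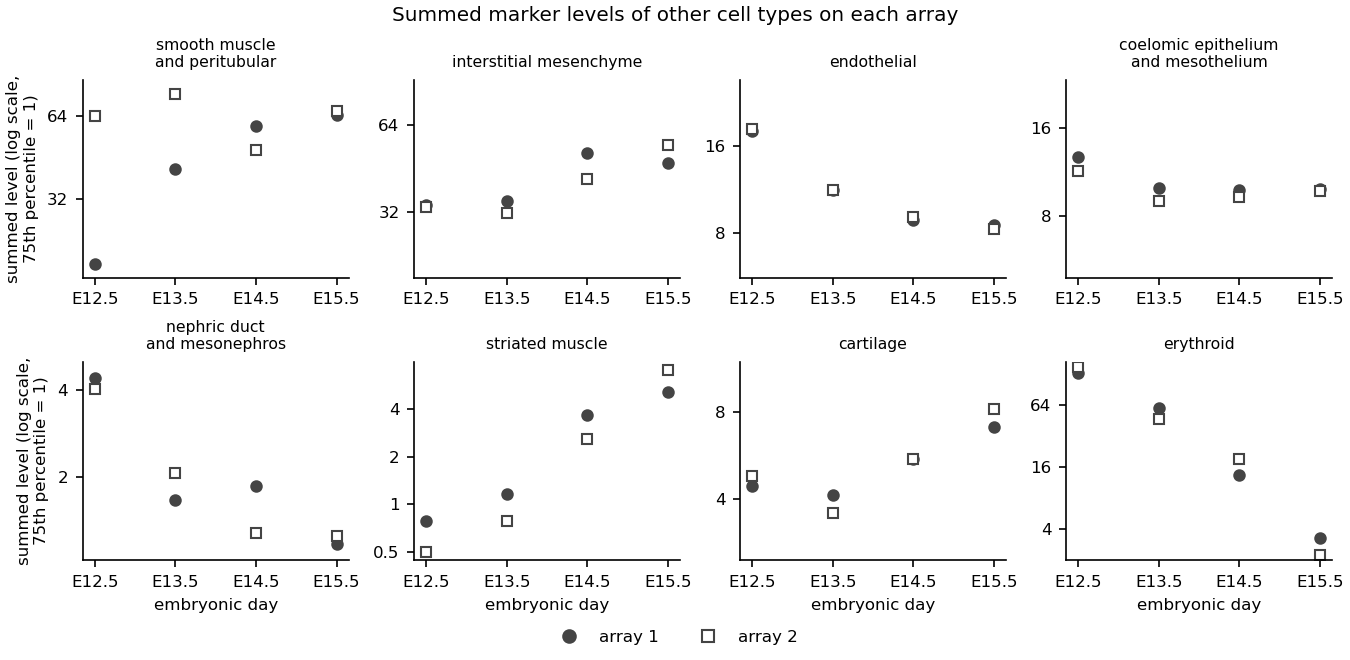
Summed level of the marker genes of 8 cell types on each array (linear sum with the array's 75th percentile as 1, log axis) against embryonic day. Filled circles are array 1 and open squares array 2 of a stage. Smooth muscle markers lie apart on the E12.5 arrays at 18.6 and 64.3 and on the E13.5 arrays at 41.0 and 77.1, a gap that lies in Tagln. Endothelial and erythroid markers are highest at E12.5, and striated muscle markers are highest at E15.5.

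Among themselves, the genes with later highs correlated to different degrees over the 8 arrays. As a description, and with arrays that share stages and slides, Pearson's r of Eln was 0.98 with Fbln5, 0.97 with Lox and 0.93 with Fbln1, but 0.79 with Mfap4 and 0.75 with Fbn1. Between the others it was as low as 0.42 for Fbn1 with Mfap4, and 0.65 both for Fbn1 with Lox and for Fbln1 with Mfap4. It was -0.96 with Fbln2 and -0.83 with Fbn2, while Fbn2 and Fbln2 were at 0.82 with each other. Among 11817 genes with a symbol that were above background on all 8 arrays, the profiles most like Eln were those of Ddhd1 and Vstm2b (r of 0.996 and 0.995), and Trp53inp2 was among the 2 most like Fbln5 (0.995). Fbln1 was nearest to Nap1l3 and Tmem68 (0.997 and 0.996), Lox to Syn2 and Ctsl (0.994 for both), Mfap4 to Slc39a13 and Rtn2 (0.994 and 0.991) and Fbn1 to P2ry1 and Gpsm2 (0.985 and 0.984). The genes with early highs were nearest to Pard6g and Zfhx3 for Fbn2 (0.993 and 0.989) and to Ppp1r14b and Itgb5 for Fbln2 (0.993 and 0.990). For Mfap5, which was near background, the nearest were Pla2g5 and Kcnmb2 (0.954 and 0.927), and r with Pla2g5 was -0.40 under normexp background correction. Under the same correction r was 0.11 for Fbln1 with Nap1l3, 0.47 for Fbn1 with P2ry1, 0.63 for Lox with Syn2, 0.66 for Lox with Ctsl, 0.65 for Fbln1 with Tmem68 and 0.72 for Eln with Vstm2b. Under the other alternatives used for r, the lowest values for these pairs were 0.971, 0.964, 0.965, 0.988, 0.987 and 0.985, in the same order. These values of r were not tested.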

How the data were processed

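Per the labels' protocols, total RNA of whole male gonads was amplified linearly, labelled with Cy3 and hybridised to one-colour Agilent arrays, 2 per stage. The deposited scanner files hold spot intensity on a linear scale, background-subtracted by Feature Extraction 9.1.3.1 (E12.5, E13.5) or 9.5.3.1 (E14.5, E15.5) per the file headers, whereas the submitters' processing notes name 9.5. The authors also deposited a table of a linear ratio per probe and stage, whose centring and scaling are not known. It was used for directions only.

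Spots of a probe were averaged without outlier flags, and log2 of the deposited processed intensity was taken minus the array's 75th percentile. Probes were kept (28188) if some stage had them well above background on each of its arrays, with the probe of highest mean per gene, which left 21986 genes. Values of further probes of the 9 genes come from the same model over all 28188 probes, with adjustment over them. RefSeq accessions gave a symbol to 22951 probes (55.7%).

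One limma model (version 3.58.1, R 4.3.3) held all 8 arrays with a mean per stage and no slide term, with 4 residual and 2.57 prior degrees of freedom. It was checked on simulated data with independent noise on each array. Those data held no slide effect, so the check cannot speak to slides. P-values measure the spread between duplicates only, and 2 arrays per stage limit the precision. No gene of the 9 was saturated. All 9 passed the filter, with 11 of their 12 probes. Slides and scan sessions were read from the file headers.

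Array numbers did not pair the arrays as a whole: deviations of same-numbered arrays correlated at 0.65 for E12.5 and E13.5, which share slides, at -0.59 for E14.5 and E15.5, and between -0.08 and 0.07 for other stages. The alternatives were normexp background correction (on the median signal, since the files used hold no mean signal), median and quantile scaling, no filter or a filter on all arrays, the mean of a gene's probes, only the arrays compared, slide or array number as a block, each array left out, and the authors' table. Counts of alternatives with a test also include normexp with extreme background values replaced, chosen after seeing the data. Some alternatives kept a gene's difference and changed only its spread, such as leaving out an array of a stage not compared or array number as a block. The alternatives are therefore not separate checks.

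From other gene lists, the text names up to 5 called genes higher and 5 lower with the largest differences from E12.5 to E15.5, and up to 2 not called of highest mean level. For each of the 9 genes it names the 2 genes of highest r. Some genes that this rule picks are not reported here. Genes of the cell type lists are named as markers. The 9 genes and the lists were chosen with earlier results of these data known.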

Additional observations from a re-analysis of the deposited data

How the results depend on the processing

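E13.5 array 2 has 3 spots with a background of up to 32329.5 against a median of 60, and with normexp on all spots the genes of the 9 called were 0 from E13.5 to E14.5 (4 in the report), 4 from E12.5 to E15.5 (8 in the report) and 2 over all 4 stages (7 in the report). Over all genes that correction gave 0, 1150 and 519 calls in these comparisons, against 2746, 7703 and 6829. With those backgrounds replaced, an alternative chosen after seeing the data, 4 were called from E13.5 to E14.5, 8 from E12.5 to E15.5 and 8 over all stages. Over all genes it gave 4032, 9221 and 8631 calls. From E12.5 to E13.5, where the report has 0 (876 of all genes), the count was 1 in 3 alternatives. These were that correction (Mfap4; 555 of all genes), median scaling (Eln; 725) and quantile scaling (Mfap4; 862). The count was 2 (Eln and Mfap4) with the filter on all arrays (664 of 17896 genes), with slide as a fixed block (981 of all genes) and with slide as a random block (970). From E13.5 to E14.5 it was 1 without a filter on dim probes (Eln; 884 of all genes) and 0 with only the arrays compared (779 of all genes). Leaving out each array in turn gave 0 to 0 calls from E12.5 to E13.5, 0 to 4 from E13.5 to E14.5, 0 to 0 from E14.5 to E15.5, 5 to 8 from E12.5 to E15.5 and 3 to 8 over all stages. Array number as a replicate block could pair only arrays that share a number. With it 3 of the genes were called from E13.5 to E14.5, 8 from E12.5 to E15.5 and 7 over all stages. Over all genes it gave 1611, 7104 and 5613 calls. With the numbers crossed at E15.5, also chosen after seeing the data, 0 were called from E14.5 to E15.5 (130 of all genes). Median scaling moved the median of all genes from -0.07 to -0.11 from E12.5 to E15.5.

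Signs turned for small or dim values. From E12.5 to E13.5, Fbln1 was at -0.059 with normexp and -0.029 in the authors' deposited table, and Mfap5 at -0.057 with normexp after replacement, -0.0049 in the authors' deposited table and between -0.10 and 0.33 with arrays left out. From E13.5 to E14.5, Mfap4 was at 0.27 with normexp, 0.026 with quantile scaling and between -0.41 and 0.23 with arrays left out, and Mfap5 at 0.011 with median scaling, 0.051 with quantile scaling, 0.039 in the authors' deposited table and between -0.30 and 0.28 with arrays left out. Over the last day, Fbn2 was between -0.83 and 0.77 with arrays left out. From E12.5 to E15.5, Mfap5 was at -0.29 with normexp with or without replacement. Efemp2 was at 0.16 with quantile scaling and between -0.29 and 0.18 with arrays left out, and Pcolce at -0.28 in the authors' deposited table and between -0.11 and 0.19 with arrays left out. Smad4 was at -0.56 with the mean of its probes and -0.091 in the authors' deposited table, and Ccn2 at -0.064 in that table. The r of Mfap5 with Pla2g5 was -0.40 with normexp and -0.37 with normexp after replacement. The cause was not tested. The authors' deposited table gave the sign of the report for 7, 8, 9 and 9 of the 9 genes in the 4 comparisons.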
